A study of Homo sapiens with 6 samples.

Results

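The laminin chains were followed in LNCaP cells, an established human prostate adenocarcinoma line that responds to androgen. The chains were the 9 genes LAMA1 to LAMA5, LAMB1 to LAMB3 and LAMC1, taken by exact symbol from probe sets that list a single gene. Of these, 8 were measured by 18 probe sets, out of 18239 genes and 49386 probe sets in all; LAMA3 was not analysed here. The urolithin A group was 3 arrays of cells kept for 24 h with 40 µM urolithin A, a compound that gut bacteria form from dietary ellagitannins. The control group was 3 arrays of the same line without it, which the titles call untreated and the protocol gives saline. All cells were grown in medium with fetal bovine serum, and no solvent is named for urolithin A. RNA was read on Affymetrix U219 expression arrays. The labels do not say that arrays came from separate cultures, so errors and p-values cover only array-to-array spread, which may be technical.

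Laminins are large secreted proteins built from an alpha, a beta and a gamma chain wound into a coiled coil. They polymerise into the sheet of the basement membrane on which epithelial cells rest, and integrins and dystroglycan on the cell surface bind the globular end of the alpha chain. The gamma 1 chain encoded by LAMC1 is shared by most laminins, whereas each alpha chain gives its trimers their receptor preferences. In normal prostate the basement membrane lies under the basal cells, and its laminin makeup is known to change in prostate cancer.

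The deposited log2 values had been centred, probe set by probe set, on the control median. Differences between arrays can therefore be read, and the level of a chain, or the order of levels between chains, cannot. For the same reason the markers of LNCaP cells could not be checked for presence, only for change. A gene's value on an array is the mean of its probe sets, and a log2 change is the urolithin A mean minus the control mean. In these whole-culture samples, fewer cells with a transcript and less of it per cell cannot be told apart. The family was chosen by the log2 change of LAMA1 between these same arrays, the deepest fall of all genes, so the values of the chains, and whether they passed the fit over all genes, are given as a description, with no p-value.

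LAMA1, the alpha 1 chain of early embryonic and epithelial basement membranes, fell by 3.56 on the log2 scale after urolithin A (SE 0.12), which is 11.8-fold. Its values were -3.77, -3.27 and -3.53 in urolithin A replicates 1, 2 and 3, against -0.03, 0 and 0.14 in control replicates 1, 2 and 3. All 3 urolithin A arrays were low, and the groups lay far apart. LAMA1 averaged -3.53 ± 0.25 in urolithin A cells and 0.03 ± 0.09 in control cells (SD, n = 3 each). The chain is represented by a single probe set, so no other probe set of the array bears on its value.

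LAMC1, the gamma 1 chain, was also lower, by 0.81 on the log2 scale (SE 0.07), or 1.75-fold. Its values were -0.75, -0.94 and -0.82 in urolithin A replicates 1, 2 and 3, against 0.00, -0.10 and 0.02 in control replicates 1, 2 and 3. The groups did not overlap. LAMC1 stood at place 143 from the lowest among the changes of all 18239 genes, whereas LAMA1 stood at place 1.

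LAMB2, the beta 2 chain of muscle, nerve and kidney basement membranes, moved the other way. Its values were 0.38, 0.43 and 0.67 in urolithin A replicates 1, 2 and 3, against 0.04, 0 and -0.36 in control replicates 1, 2 and 3. The log2 change was 0.60 (SE 0.12), or 1.52-fold higher, and the groups did not overlap. The most distant arrays of each group were replicate 3, and without urolithin A replicate 3 the log2 change was 0.51 and no longer passed the threshold that is used over all genes. LAMB2 is represented by a single probe set.

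The other 5 measured chains had overlapping groups and log2 changes between -0.04 and 0.14. The beta 1 chain LAMB1, which pairs with gamma 1 in most laminins of epithelia and vessels, had values of 0.17, -0.01 and 0.21 in urolithin A replicates 1, 2 and 3, against 0.00, -0.02 and 0.18 in control replicates 1, 2 and 3. Its log2 change was 0.07 (SE 0.09). The alpha 5 chain LAMA5, common in adult epithelial basement membranes, had values of 0.25, 0.14 and 0.37 in urolithin A arrays, against -0.02, 0.18 and 0.19 in control arrays. Its log2 change was 0.14 (SE 0.09). The alpha 2 chain LAMA2, best known from muscle, had values of 0.10, -0.17 and 0.03 in urolithin A arrays, against 0, 0.03 and -0.07 in control arrays. Its log2 change was 0.00 (SE 0.08). LAMA4, the alpha 4 chain of blood vessels and mesenchyme, had values of -0.03, -0.02 and -0.10 in urolithin A arrays, against 0.02, 0.07 and -0.14 in control arrays, with a log2 change of -0.04 (SE 0.07). LAMB3, the beta 3 chain of the laminin that anchors skin and basal epithelia, had values of 0.05, 0.12 and 0.08 in urolithin A arrays, against 0.00, 0.04 and 0.05 in control arrays, with a log2 change of 0.05 (SE 0.06). In order of change, LAMA1 came lowest, then LAMC1, then these 5 chains, whose log2 changes had SEs from 0.06 to 0.09, then LAMB2.

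**Figure D1:**
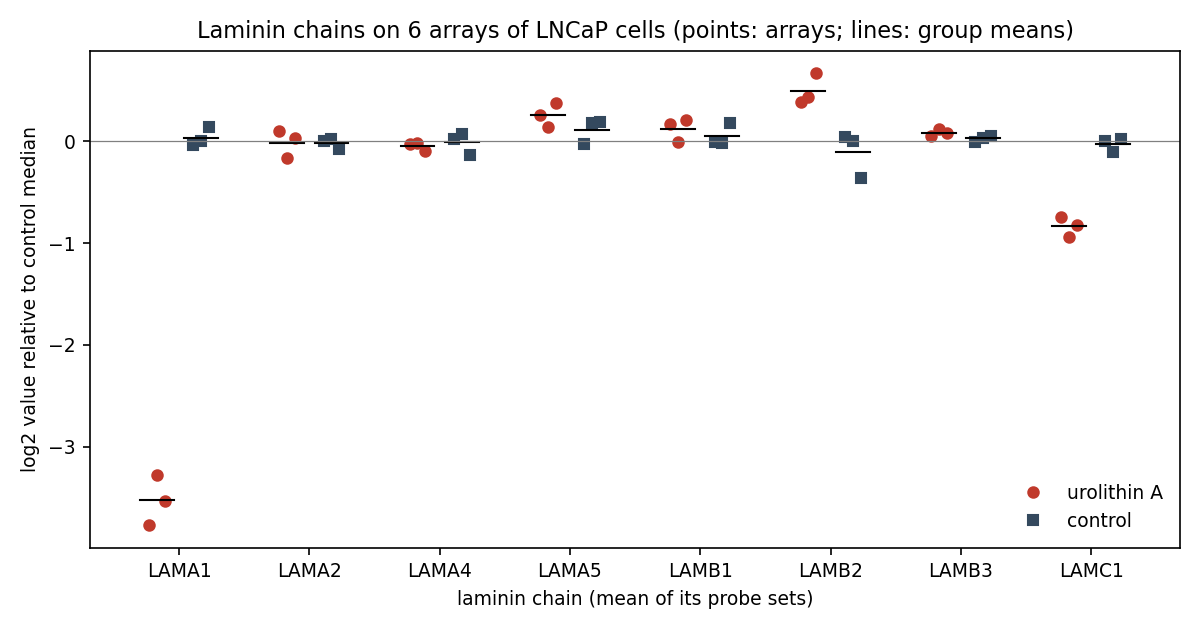
Log2 value relative to the control median (vertical axis) of the 8 measured laminin chains (horizontal axis) on each array; red circles are the 3 urolithin A arrays, dark squares the 3 control arrays, and black lines the group means. The urolithin A arrays of LAMA1 lie between -3.77 and -3.27 and those of LAMC1 between -0.94 and -0.75, all below their controls; those of LAMB2 lie above their controls, and the other chains overlap.

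LAMA1 was set against the other 7 measured chains on each array. LAMA1 minus the median of the other chains was -3.87, -3.27 and -3.61 in urolithin A replicates 1, 2 and 3, against -0.03, -0.03 and 0.12 in control replicates 1, 2 and 3. The difference between the group means was -3.60, while the median of the other chains itself differed by 0.04. The median log2 change of the other 7 chains was 0.05, beside 0.01 for all genes, and their range was -0.81 to 0.60. For the trimer of alpha 1, beta 1 and gamma 1, the classical laminin of tumour matrix, the 3 chains had log2 changes of -3.56, 0.07 and -0.81.

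In limma's fit over all 18239 genes, 3 of the 8 measured chains passed an adjusted p of 0.05, namely LAMA1 and LAMC1 lower and LAMB2 higher. Of all genes, 10.2% passed, 5.31% lower and 4.85% higher. The groups did not overlap for the same 3 chains, and for 29.3% of all genes. These counts use the contrast that led to the choice of the chains and support nothing further.

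The 18 probe sets of the chains were also fitted one at a time. Of these, 5 passed lower and 1 higher, where 8.41% of all 49293 probe sets apart from control probe sets passed, 4.4% lower and 4.01% higher. The groups did not overlap for these same 6, and for 27.9% of all probe sets. The 5 lower ones were the LAMA1 probe set and 4 of the 5 probe sets of LAMC1. The LAMC1 probe sets differed in size. Log2 changes of -1.30 (SE 0.09) and -1.17 (SE 0.14) were seen for 2 of them, which is 2.45-fold and 2.25-fold lower. The remaining 3 had log2 changes of -0.64 (SE 0.11), -0.58 (SE 0.12) and -0.35 (SE 0.13). In the probe set with the deepest fall the values were -1.35, -1.38 and -1.32 in urolithin A replicates 1, 2 and 3, against 0, -0.16 and 0.00 in control replicates 1, 2 and 3. In the probe set with the least fall they were -0.53, -0.25 and -0.43 in urolithin A arrays, against -0.30, 0 and 0.15 in control arrays, and there the groups overlapped. Which part of the LAMC1 transcript each probe set reads was not examined. With the median of its probe sets in place of the mean, LAMC1 had a log2 change of -0.64. The 4 probe sets of LAMA4 ranged from -0.11 to 0.05, and those of LAMA5, LAMB1 and LAMB3, 2 of each, from 0.00 to 0.17 apart from -0.02 in a LAMB1 probe set.

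**Figure D2:**
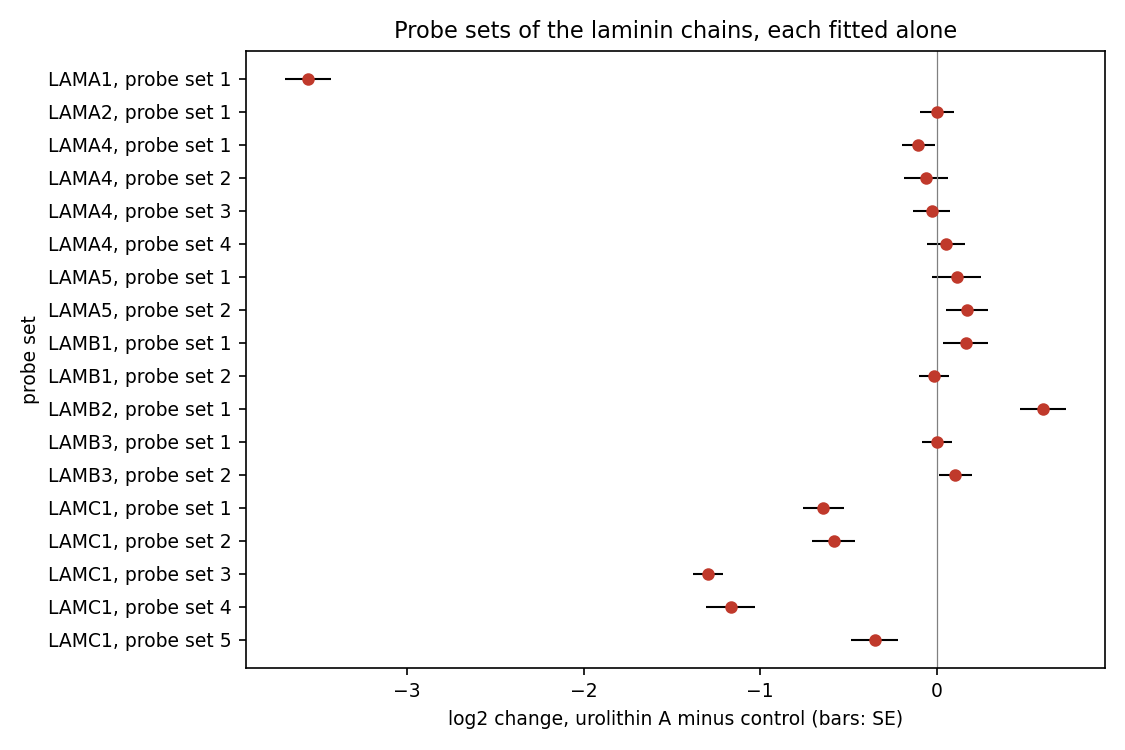
Log2 change, urolithin A minus control (horizontal axis), of each of the 18 probe sets of the laminin chains (vertical axis); bars are standard errors of the fit. All 5 LAMC1 probe sets lie below 0, between -1.30 and -0.35, while the single LAMA1 probe set lies at -3.56 and that of LAMB2 at 0.60.

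The sequences before the transcription start are shown for LAMC1, which was lower, LAMB2, which was higher, and LAMB1, the usual partner of LAMC1, whose groups overlapped. The table of RefSeq start regions used here, on build GRCh38.p14, holds 7 of the 8 measured chains, all but LAMA1. Each run holds the 250 bases before the start on the gene's own strand, and capitals mark the SP1 box GGGCGG on either strand, a motif of GC-rich promoters. The regions are chr1:183023170-183023419 on the plus strand, chr3:49133051-49133300 on the minus strand and chr7:108003162-108003411 on the minus strand.
LAMC1: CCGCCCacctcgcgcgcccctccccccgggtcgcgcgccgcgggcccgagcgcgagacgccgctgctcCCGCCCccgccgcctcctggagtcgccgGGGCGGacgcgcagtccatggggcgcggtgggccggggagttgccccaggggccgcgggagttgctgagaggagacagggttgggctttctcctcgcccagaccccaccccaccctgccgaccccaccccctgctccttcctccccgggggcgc
LAMB2: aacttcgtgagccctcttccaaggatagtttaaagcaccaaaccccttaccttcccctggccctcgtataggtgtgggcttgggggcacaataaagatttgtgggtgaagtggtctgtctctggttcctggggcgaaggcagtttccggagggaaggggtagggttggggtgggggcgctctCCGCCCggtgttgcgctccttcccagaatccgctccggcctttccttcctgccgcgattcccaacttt
LAMB1: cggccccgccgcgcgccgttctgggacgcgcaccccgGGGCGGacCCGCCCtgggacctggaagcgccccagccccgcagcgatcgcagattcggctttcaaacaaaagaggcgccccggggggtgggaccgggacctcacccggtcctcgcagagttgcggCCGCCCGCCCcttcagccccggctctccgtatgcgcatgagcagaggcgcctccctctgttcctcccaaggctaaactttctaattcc

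LAMC1 and LAMB1 had GC contents of 79.6% and 70.4% and LAMB2 of 58.4%, beside a median of 58% over 35097 such regions. The SP1 box occurred 3 times before LAMC1, once before LAMB2 and 4 times before LAMB1, where 2 of the matches overlap. At least a single SP1 box stood in 42.6% of all regions. Also searched on both strands were the E-box CAGGTG that Snail-type repressors bind, the androgen receptor hexamer TGTTCT, the CCAAT box CCAAT and the TATA box TATAAA, present in 17.5%, 12.4%, 32% and 10.7% of all regions. None of these 4 motifs occurred in the 3 regions shown. Among the chains not shown, LAMA5 had a CAGGTG E-box, and the 3 start regions of LAMB3 held a CAGGTG E-box, a TGTTCT hexamer and a CCAAT box between them. LAMC1 and LAMB1, the richest of the 3 in GC and SP1 boxes, had log2 changes of -0.81 and 0.07. LAMA5, not shown, was richer still, with 82.8% GC, 5 SP1 boxes and a log2 change of 0.14. LAMA2 and LAMA4, at 53.2% and 48.4% GC, held none of the motifs and had log2 changes of 0.00 and -0.04. Each start region of LAMB3 held a single SP1 box. A match is a run of letters and not a site known to be bound, and the absence of a match says only that these letters are not in the window.

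The genes beside the 3 chains that passed were examined by their order in RefSeq, a property that the choice of the chains did not use. On one side of LAMA1 the next measured gene, ARHGAP28, which encodes a GTPase-activating protein, fell 3.43-fold. Its values were -1.80, -1.79 and -1.68 in urolithin A replicates 1, 2 and 3, against -0.14, 0 and 0.19 in control replicates 1, 2 and 3. All urolithin A arrays lay below all controls, and the log2 change was -1.78 (SE 0.09, limma adjusted p = 0.000111). Each of its 3 probe sets was lower, by log2 changes of -2.37, -1.65 and -1.31.

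On the other side the next measured gene, the leucine-rich repeat gene LRRC30, had a log2 change of -0.01 (SE 0.08, limma adjusted p = 0.962). The gene after it, PTPRM, a receptor-type tyrosine phosphatase that mediates contact between like cells, fell 1.79-fold. The values of PTPRM were -0.95, -0.71 and -0.77 in urolithin A replicates 1, 2 and 3, against 0.03, -0.07 and 0.12 in control replicates 1, 2 and 3. Its log2 change was -0.84 (SE 0.09, limma adjusted p = 0.00101), and its 4 probe sets lay between -0.91 and -0.70. The calls of ARHGAP28 and PTPRM held under each of the 14 alternatives that were run. Of the 12 measured genes within 6 places of LAMA1, a span chosen after the nearest genes had been seen, ARHGAP28 and PTPRM were lower and the other 10 did not pass, where 5.31% of all genes passed lower. The 4 genes beyond ARHGAP28 on that side after L3MBTL4 (log2 change 0.08), from TMEM200C to LINC00526, ranged from -0.17 to 0.14. The 4 genes beyond PTPRM, from RAB12 to ANKRD12, ranged from -0.14 to 0.12. Whether the falls of LAMA1, ARHGAP28 and PTPRM are linked was not tested.

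**Figure D3:**
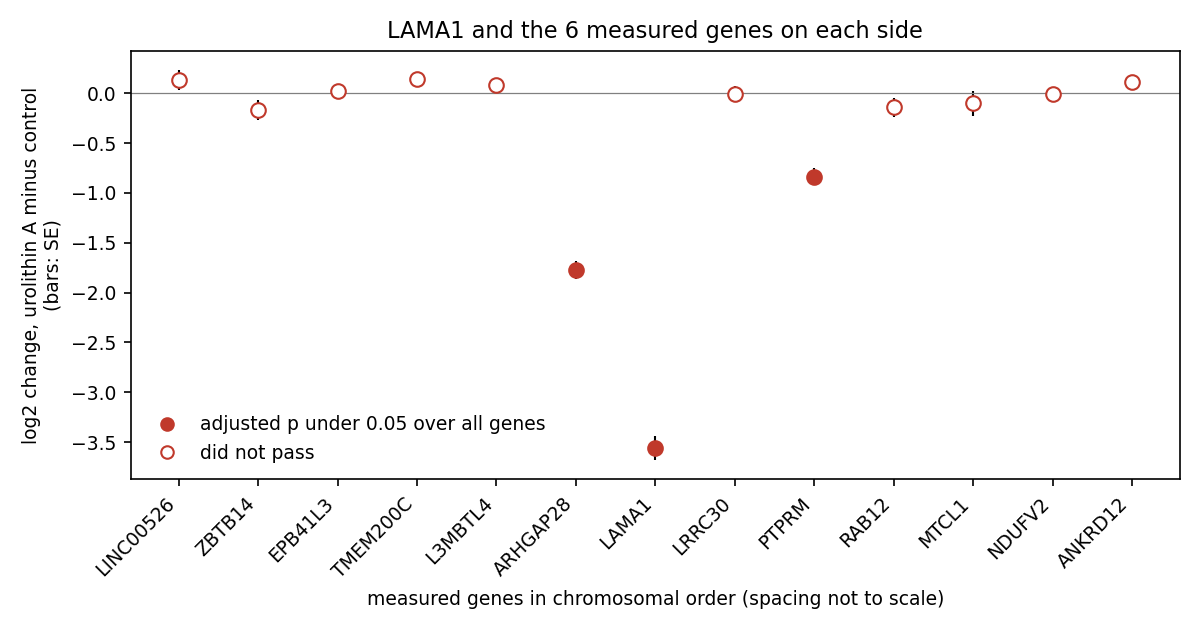
Log2 change, urolithin A minus control (vertical axis), of LAMA1 and the 6 measured genes on each side in their order along the chromosome (horizontal axis, spacing not to scale); bars are standard errors, and filled circles passed an adjusted p of 0.05 over all genes. ARHGAP28, LAMA1 and PTPRM lie at -1.78, -3.56 and -0.84, with LRRC30 near 0 between LAMA1 and PTPRM.

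No measured neighbour of LAMC1 or LAMB2 passed in limma's fit, and 0 of these 8 genes had an unadjusted p under 0.05. The 4 genes nearest to LAMC1 were DHX9, SHCBP1L, NMNAT2 and ARPC5, with log2 changes from -0.06 to 0.16 (limma adjusted p from 0.444 to 0.996). The 4 nearest to LAMB2 were QARS1, USP19, CCDC71 and KLHDC8B, with log2 changes from -0.09 to 0.17 (limma adjusted p from 0.237 to 0.58).

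Across the 6 arrays the genes closest to LAMA1 were found by the root-mean-square difference between their log2 values and those of LAMA1. In order they were SPOCK1 at 0.89, SNAI2 at 1.00, KLK2 at 1.03, PLA1A at 1.05 and TM4SF1 at 1.06. SPOCK1 encodes a secreted proteoglycan, SNAI2 a Snail-type repressor, KLK2 an androgen-induced protease, PLA1A a phospholipase and TM4SF1 a membrane protein of the tetraspanin-like group. None came as low as LAMA1: their urolithin A means ranged from -2.33 to -2.04, against -3.53 for LAMA1. By its construction this measure picks genes with deep falls.

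Genes of laminin biology were read in 6 lists, of which 85 of 93 entries were measured. In limma's fit 1 of these 85 rose and 5 fell, together 7.06%, where 10.2% of all genes passed. Their median log2 change was -0.01, against 0.01 for all genes. The lists were written with earlier results of these data known.

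Among the remaining laminin chains and the netrins, which are built from laminin-like short arms, 1 of 7 measured genes passed. This was NTNG1, a membrane-anchored netrin of neurons, which fell 1.66-fold. NTNG1 had values of -0.72, -0.80 and -0.90 in urolithin A replicates 1, 2 and 3, against 0.09, -0.19 and -0.14 in control replicates 1, 2 and 3 (log2 change -0.73, SE 0.09, limma adjusted p = 0.00219). The gamma 3 chain LAMC3 had a log2 change of 0.10 (SE 0.08) and the beta 4 chain LAMB4 of 0.00 (SE 0.08). NTN4, a basement membrane netrin that binds gamma chains, had a log2 change of 0.08 (SE 0.10). The list's median log2 change was 0.08.

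Of 18 other components of basement membranes, 1 fell and the other 17 missed the threshold; their median log2 change was -0.03. The type IV collagen gene COL4A5 fell 1.22-fold (log2 change -0.29, SE 0.07, limma adjusted p = 0.0412). Leaving out any array other than control replicate 3 ended that call, at adjusted p up to 0.132. The collagen genes COL4A1 and COL4A2, whose products form the main network of the sheet, had log2 changes of 0.06 (SE 0.07) and -0.19 (SE 0.11). The nidogens NID1 and NID2, which tie laminin to that network through the gamma 1 chain, had log2 changes of 0.08 (SE 0.07) and 0.10 (SE 0.07). The heparan sulfate proteoglycans perlecan, encoded by HSPG2, and agrin, encoded by AGRN, had log2 changes of -0.07 (SE 0.07) and -0.09 (SE 0.08).

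Of 14 measured receptors for laminin and partners of these receptors, 1 rose and the other 13 missed the threshold; the median log2 change was 0.00. The one that rose was the syndecan gene SDC4, a proteoglycan that binds the heparin-binding part of matrix proteins. SDC4 had values of 1.19, 1.09 and 1.24 in urolithin A replicates 1, 2 and 3, against 0.17, 0 and -0.10 in control replicates 1, 2 and 3. The groups lay well apart, with a rise of 2.22-fold (log2 change 1.15, SE 0.09, limma adjusted p = 0.000319).

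The alpha 6 integrin gene ITGA6, the laminin receptor that prostate cancer cells often keep, had a log2 change of -0.37 (SE 0.12, limma adjusted p = 0.0861) with overlapping groups. Without urolithin A replicate 3 its change was -0.47 and passed (limma adjusted p = 0.0427). ITGB1 and ITGB4, which encode the beta chains that pair with it, had log2 changes of 0.06 (SE 0.07) and -0.08 (SE 0.07). ITGA3, another laminin-binding integrin chain, had a log2 change of 0.02 (SE 0.08). BCAM, a receptor for the alpha 5 chain, had one of -0.03 (SE 0.10).

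Dystroglycan binds laminin only through sugars that a set of enzymes adds. Of 14 measured genes of that set none passed in limma's fit and 2 had an unadjusted p under 0.05; their median log2 change was -0.02. The log2 changes ranged from -0.31 to 0.24, and the urolithin A arrays lay above all controls for 2 genes and below them for 3, where 15.6% of all genes lay above and 13.7% below.

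Of 16 proteases that process laminins or their matrix, 2 fell and the other 14 missed the threshold; the median log2 change was 0.00. ADAMTS1, a secreted metalloprotease, had values of -1.06, -1.24 and -1.22 in urolithin A replicates 1, 2 and 3, against -0.08, 0 and 0.26 in control replicates 1, 2 and 3. Its fall of 2.35-fold (log2 change -1.23, SE 0.10, limma adjusted p = 0.000403) was the deepest of the 85 genes. MMP7, a matrix metalloprotease of epithelia, fell 1.60-fold (log2 change -0.68, SE 0.13, limma adjusted p = 0.0134), and its call was lost without control replicate 1 (limma adjusted p = 0.0526). Of 16 adaptors that join these receptors to the cytoskeleton, 1 fell and the other 15 missed the threshold; the median log2 change was -0.04. That gene was UTRN, which encodes utrophin, the link from dystroglycan to actin outside muscle, at 1.54-fold lower (log2 change -0.62, SE 0.11, limma adjusted p = 0.0106). Without limma's moderation the calls of UTRN, NTNG1, COL4A5 and MMP7 were lost, at adjusted p of 0.11, 0.0538, 0.106 and 0.132. At an unadjusted p under 0.05 in limma's moderated fit stood 3 of 14 receptors, 4 of 16 proteases and 4 of 16 adaptors. So did 1 of 7 remaining chains and netrins and 1 of 18 basement membrane components. The share of all genes at that cut-off is not given here.

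**Figure D4:**
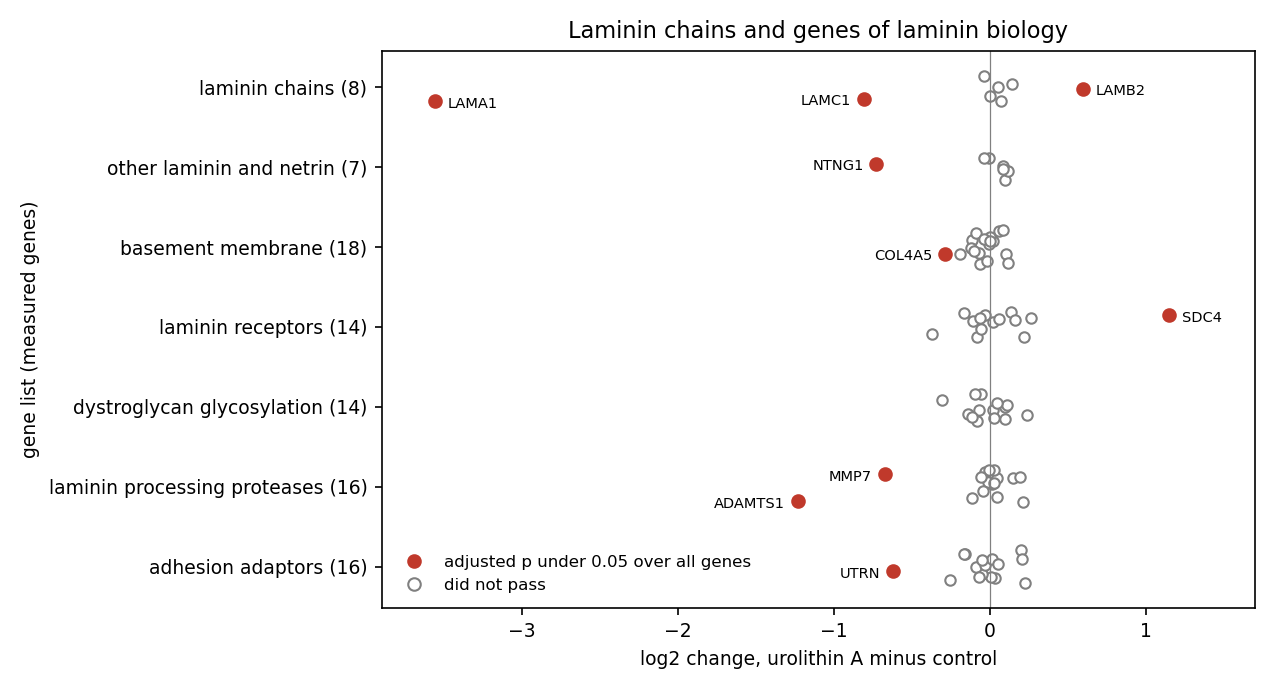
Log2 change, urolithin A minus control (horizontal axis), of the 8 measured laminin chains and of the measured genes of 6 lists of laminin biology (vertical axis, with the number of genes in parentheses); filled circles passed an adjusted p of 0.05 over all genes and are named. Of the 85 listed genes 6 passed, SDC4 above 0 and NTNG1, COL4A5, MMP7, ADAMTS1 and UTRN below 0.

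Markers of cell types were read beside the chains. Of 8 measured luminal prostate markers 3 fell, namely KLK2 (log2 change -2.07), TMPRSS2 (-1.98) and KLK3 (-0.98), and 5 did not pass. Among all genes 5.31% passed lower. Of the markers that did not pass, FOXA1, KRT8 and HOXB13 had log2 changes of 0.16, 0.13 and 0.05, and KRT18 and ACP3 of -0.07 and -0.53; all urolithin A arrays of FOXA1 lay above all controls. The median of the luminal list was -0.27, -0.30 and -0.48 in urolithin A replicates 1, 2 and 3, against 0.01, -0.03 and 0.04 in control replicates 1, 2 and 3. In urolithin A replicates 1 and 2 it lay midway between ACP3 and KRT18, whose groups overlapped. In urolithin A replicate 3 it lay midway between KLK3 and KRT18. The markers did not move together, so this median does not describe the list as a whole. None of 4 basal markers and none of 6 endothelial markers passed in limma's fit (0 of either at an unadjusted p under 0.05). At that unadjusted cut-off stood 5 of 8 luminal markers and 1 of 9 stromal markers. Of 9 stromal markers 1 passed, the intermediate filament gene VIM, at a log2 change of 0.57 (SE 0.15, limma adjusted p = 0.0461). Leaving out any array other than control replicate 2 ended the VIM call, at adjusted p up to 0.143. The part of these differences in the values of the laminin chains was not tested.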

How the data were processed

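Per the submitters' processing notes, the deposited log2 values come from RMA (background correction, quantile normalization and probe set summary; version not given in the sources used here). The control median was exactly 0 for each of 49386 probe sets, so it had been subtracted before deposit. The log base is not stated and was taken as 2, since RMA works on that scale. Array medians over all probe sets ranged from 0.00 to 0.01 in urolithin A arrays and were 0 in control arrays, no arrays held identical values, and the number of arrays limits the precision. No batch or scan date was used here.

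Probe sets were named through the platform annotation, and 93 control probe sets were left out. Genes with a single-symbol probe set (18239) entered a two-sided moderated fit of treatment alone (limma 3.58.1, R 4.3.3), with Benjamini-Hochberg adjustment over all genes. The fit was also run on simulated independent normal values, which do not mimic deviations shared between arrays. Named genes were the chains, fixed laminin genes, up to 6 passing genes of each list, passing markers, 5 genes like LAMA1 and the nearest genes. Members and lists were chosen with earlier results of these data known. Whether same-numbered arrays of the 2 groups belong together was not tested. The correlations of their deviations from group means over genes were 0.08, 0.02 and 0.20. For arrays with different numbers they ranged from -0.14 to 0.07.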

Additional observations from a re-analysis of the deposited data

How the results depend on the processing

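The log2 changes of the 8 chains kept their sign wherever the chain had passed, and LAMA1 was the lowest of all genes under each of the 14 alternatives. That place had led to the choice of the family, so it lends no further support. The block, the prior, the lack of moderation and the stricter threshold could not alter the log2 change of LAMA1. Nor could the handling of probe sets, since LAMA1 has a single one that was kept throughout. Without each array in turn, LAMA1 ranged from -3.69 to -3.44, LAMC1 from -0.85 to -0.76, LAMB2 from 0.47 to 0.67. The log2 change of LAMA1 minus the median of the other chains' log2 changes was -3.61 and ranged from -3.76 to -3.49 in these fits; the -3.60 given above instead takes the median on each array first. LAMC1 was -0.64 with the median of its probe sets. LAMB2 did not pass without moderation, at an adjusted p of 0.01 or without urolithin A replicate 3. With a single array of each group per replicate number, the replicate number as a block cannot change a log2 change (LAMA1 stayed at -3.56). Only the errors and p-values can differ, and whether same-numbered arrays belong together was not tested. Genes that passed, 1854 in the fit reported (885 higher, 969 lower), numbered 1863 with the block, 560 (262 higher, 298 lower) without moderation, 642 (272 higher, 370 lower) at an adjusted p under 0.01, and 1063 to 1309 without a single array (482 to 628 higher, 581 to 681 lower). With a trended robust prior 574 were higher. Probe sets that passed at 0.01 numbered 1481. Of the laminin-linked genes, 6 in the fit reported, 8 passed with the block, among them ITGA6 (limma adjusted p = 0.0196), 3 passed without moderation (2 higher, 1 lower), 3 at 0.01 (2 lower), and 4 to 6 without a single array (1 higher in each, 3 to 5 lower). For these counts and for LAMC1 the cause was not tested, although fits without an array rest on fewer samples. Centred values give no signal over background, so dim probe sets could not be filtered.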
